A study of Drosophila melanogaster with 2 samples.

Results

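The genes for the translation initiation, elongation and release factors were taken as the protein-coding genes of the dm6 annotation whose symbol starts with eIF, eEF or eRF and a number, which gave 53 of 13945 genes. The series mapped the binding of Mnt in whole adult female Drosophila melanogaster by chromatin immunoprecipitation and sequencing (ChIP-seq). It had 1 group with 2 biological replicates, both from 1 transgenic line (strain Mnt-GFP, age unknown) that makes Mnt joined at its C-terminus to GFP, pulled down with an antibody against GFP. The labels do not say what drives the transgene or what the endogenous Mnt gene does in these flies, and the control libraries were not analysed here. Whole flies mix many tissues, so a peak from fewer cells and a weaker peak in all cells cannot be told apart.

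Initiation factors bring the small ribosomal subunit, the initiator tRNA and the capped end of an mRNA together. Elongation factors then deliver aminoacyl-tRNAs and move the ribosome along, and release factors end the chain at a stop codon. Mnt is a bHLH leucine zipper repressor that pairs with Max and competes with Myc, which drives growth and protein synthesis genes in flies. Max dimers bind the E-box CACGTG. Housekeeping promoters of flies often carry instead the DNA replication-related element (DRE, TATCGATA) or Motif 1 (searched as GGTCACAC). Promoters of many ribosomal protein genes start in a run of pyrimidines, searched here as TCTTTC, also with C in the first place or T in the last, on the gene's strand within 20 bp of the start.

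The first set of sequences shows the E-box at the only 3 members that had one within 100 bp of their strongest Mnt-eGFP summit, the base where enrichment was highest. All sequences are from the Release 6 reference (dm6), read 5′ to 3′ on the strand of the gene, with the motif in capitals. The eIF4A helicase gene has its E-box 70 bp from the summit (chr2L:5981789-5981814, plus strand), eEF2 70 bp away (chr2L:21682186-21682211, minus strand) and eEF1delta 88 bp away (chr2L:10232702-10232727, plus strand).
eIF4A: tcagtagcagCACGTGtataaaaagt
eEF2: atgaatctgtCACGTGaactactatc
eEF1delta: tagccagtttCACGTGgccggtaaat
The second set shows the DRE at 4 of the members that had one near the summit, here 1 to 29 bp away. These are eIF2alpha (chrX:16446989-16447016, minus strand), eIF3a (chr3R:4433916-4433943, minus strand), eEF1gamma (chr3R:29220121-29220148, plus strand) and eRF1 (chr3L:20348320-20348347, plus strand).
eIF2alpha: cgcaattaaaTATCGATAacaccactgt
eIF3a: cggcctgaacTATCGATAacgcagccag
eEF1gamma: gcctaggaaaTATCGATAtatcgccgta
eRF1: tattttaagaTATCGATAatgtcatcgg
The third set shows the pyrimidine run at the starts of the 3 genes with an E-box at the summit and of 2 eIF3 genes without one. They lie at eIF4A (chr2L:5981757-5981782, plus strand), eEF2 (chr2L:21682098-21682123, minus strand), eEF1delta (chr2L:10232487-10232512, plus strand), eIF3e (chr3L:16786919-16786944, minus strand) and eIF3g1 (chrX:2610315-2610340, minus strand).
eIF4A: agatggagccTCTTTTgcttggtttt
eEF2: agcgcctcgcTCTTTCctgtcgaaac
eEF1delta: acctgcattcCCTTTCaaacgtgtta
eIF3e: cgggcgtcacTCTTTTcgtctctggg
eIF3g1: agggtaacacTCTTTTgttgctgatt

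A gene was counted as having a peak when a summit of the reproducible ("optimal") list of 7451 peaks lay within 500 bp of any of its annotated starts. Of the 53 translation factor genes, 40 had one (75.5%), beside 38.1% of all protein-coding genes. A peak's signal comes from the authors' caller, and it is used here only to rank and describe peaks within 1 list. At the 40 genes the strongest peak had a median signal of 264 (quartiles 185 and 430), beside 171 (115 and 273) at the 5316 protein-coding genes with a peak. The members ranged from 85.1 at eIF4G1 to 1155 at eIF6. Among them 9 (22.5%) were at 1 of the 500 strongest peaks, beside 10.7% of all genes with a peak. With 1 group there was no test between conditions, and these shares are a description.

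**Figure D1:**
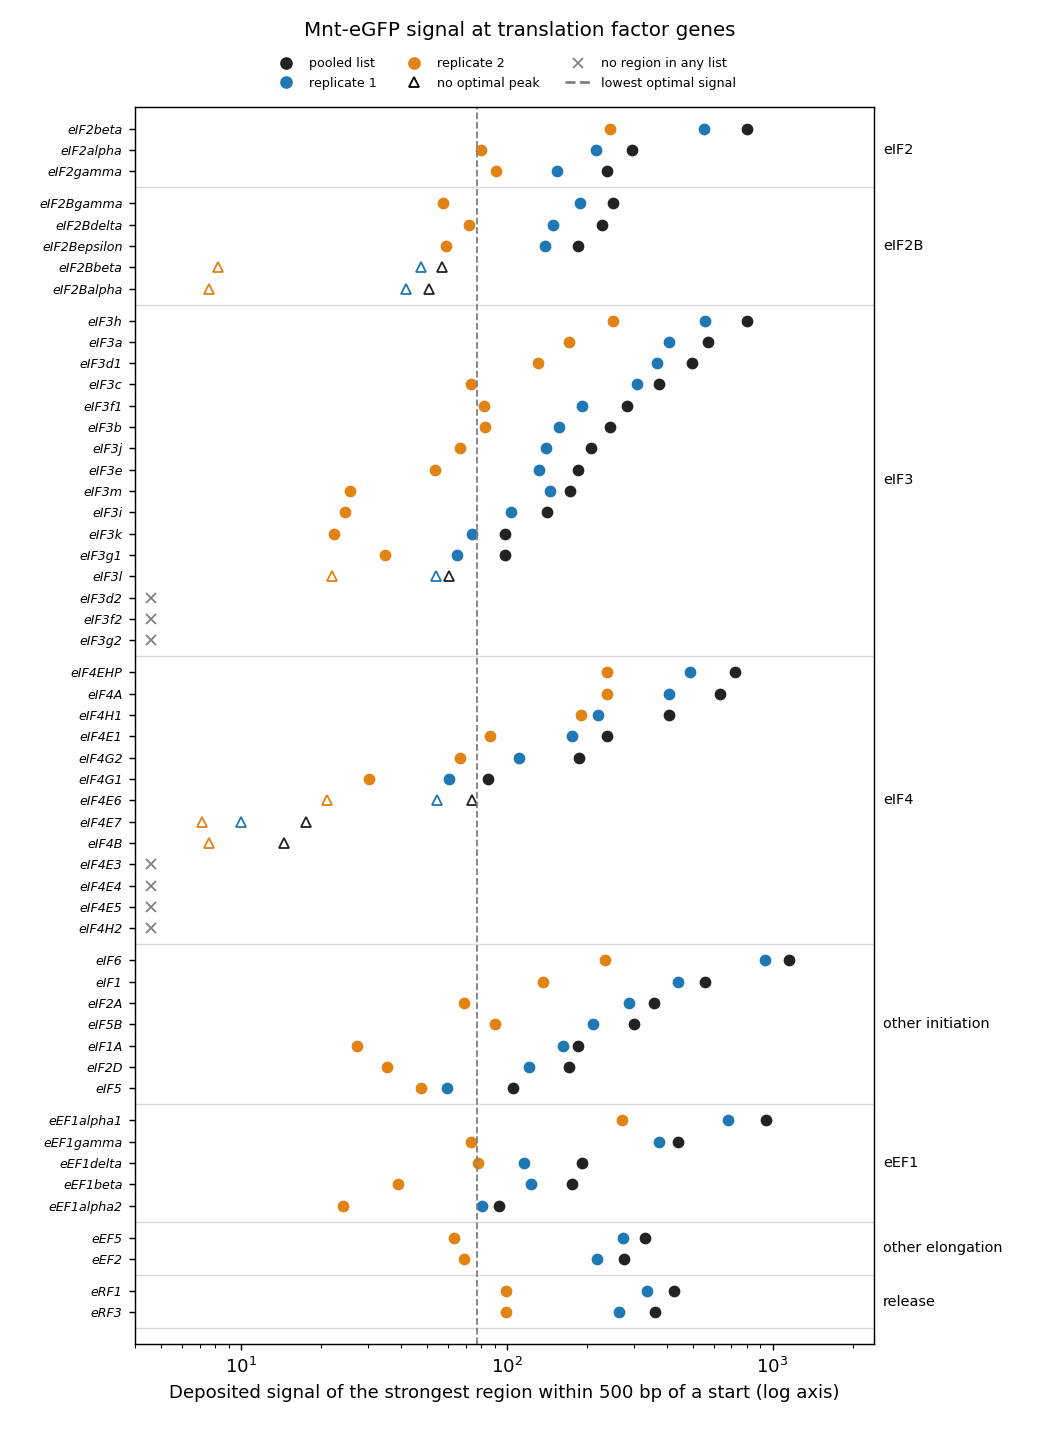
Signal of the strongest region within 500 bp of a start, on a log axis, for each translation factor gene in the pooled list and in each replicate list, grouped by complex; the dashed line is the lowest signal of the optimal list, 77.1, and applies to the pooled values. Open triangles mark genes with no optimal peak. A grey cross at the left edge marks a gene with no region in any list and is not a signal. Genes absent from only some lists have no point for those. The strongest are eIF6, eEF1alpha1, eIF3h and eIF2beta.

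The 10 strongest members include members of eIF2, eIF3, eIF4 and eEF1 and other initiation factors, and none is a subunit of eIF2B or a release factor. eIF3h had its peak on 2L from 5052347 to 5052984, and eIF4A on 2L from 5981382 to 5982285. The peak of eIF2beta was on 3L from 12526315 to 12526887 and that of eIF1 on 3L from 3222666 to 3223430. eIF1 lies beside RpL28, and its summit was the farthest from a start among the members. On 3R the peaks were those of eIF4EHP (24108803 to 24109394), eIF3a (4433724 to 4434178), eIF3d1 (23679849 to 23680215) and eEF1gamma (29219944 to 29220302). eEF1alpha1 had its strongest region on 2R from 11892708 to 11893539, and that of eIF6 is given with its group.

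Both replicates placed these genes high. The genes were picked by a signal that derives from the same 2 replicates, so these ranks are not independent of the choice. In replicate 1 the signal was 487 at eIF4EHP (rank 212), 407 at eIF4A (316), 407 at eIF3a (314), 441 at eIF1 (256), 369 at eIF3d1 (379) and 374 at eEF1gamma (370). In replicate 2 it was 238 (rank 162), 238 (163), 172 (365), 136 (587), 131 (641) and 73.6 (1848) in the same order. eEF1gamma was the member of the 10 with the lowest rank in replicate 2. The E-box genes eEF2 and eEF1delta ranked 1006 and 2885 in replicate 1 and 2079 and 1682 in replicate 2.

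Among the initiation factors, all 3 genes of eIF2 had a peak, beside 38.1% of all protein-coding genes. eIF2 is the GTPase that carries the initiator tRNA to the small subunit. The gene of its beta subunit had a signal of 799 in the optimal list, from a region with 554 in replicate 1 and 245 in replicate 2. eIF2alpha, the subunit phosphorylated under stress, had 295, and the GTP-binding subunit eIF2gamma had 239. At eIF2beta the summit lay in an intron 143 bp past the nearest start, and a weaker summit of 223 lay 62 bp before a start. At eIF2gamma there were 3 summits, with signals of 239, 163 and 129.

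eIF2B, the exchange factor that reloads eIF2 with GTP, had peaks at 3 of its 5 genes, beside 38.1% of all protein-coding genes. The catalytic subunit eIF2Bepsilon had a signal of 185, its partner eIF2Bgamma 251 and the regulatory subunit eIF2Bdelta 228. The genes of the other regulatory subunits, eIF2Balpha and eIF2Bbeta, had none in the optimal list. Their strongest regions in the pooled list had signals of 51.2 (rank 10818) and 56.8 (rank 9888). The pooled and replicate lists hold 30000 regions each, background included, so a region there need not be a peak. The 2 replicates also ranked both genes low, eIF2Balpha at 9508 and 25081 and eIF2Bbeta at 8413 and 22790. The nearest optimal summit to a start of eIF2Bbeta was 682 bp away, outside the 500 bp used. For eIF2Bdelta and eIF2Bepsilon another coding gene was nearer to the summit, roh in the first case and Ocrl in the second, so with the nearest gene alone eIF2B kept 1 peak of 5.

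eIF3, the large scaffold that binds the small subunit, had peaks at 12 of its 16 genes, beside 38.1% of all protein-coding genes. The median signal at those of eIF3 was 226. Its members with an MPN domain were eIF3h, with 804 in the optimal list, 557 in replicate 1 and 250 in replicate 2, and eIF3f1 with 283. The members with a PCI domain spread from 573 at eIF3a through 375 at eIF3c, 186 at eIF3e and 173 at eIF3m to 98.4 at eIF3k. The remaining PCI subunit, eIF3l, had a pooled region of 60.7 at rank 9294 and no peak. The other subunits were eIF3d1 at 496, eIF3b at 244, eIF3j at 207, eIF3i at 142 and eIF3g1 at 98.3. The summit at eIF3h, 43 bp past its start, was also within 500 bp of a start of senju, and that at eIF3a, 61 bp before its start, was nearer to CG1074.

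The eIF4 group recognises the cap and unwinds the leader of the mRNA. It had peaks at 6 of 13 genes, beside 38.1% of all protein-coding genes, with a median signal of 323. The cap-binding repressor eIF4EHP had 724, the RNA helicase eIF4A 636, the helicase cofactor eIF4H1 409, the main cap-binding protein eIF4E1 237, and the scaffolds eIF4G2 and eIF4G1 186 and 85.1. eIF4EHP had a second summit of 330 in the same region, which it shares with CG18428. eIF4A had 3 summits, the strongest 108 bp past a start and the others with 171 and 146. eIF4B, another cofactor of the helicase, had a pooled region of 14.5 at rank 28320, a replicate 2 region of 7.56 at rank 25177 and no region in replicate 1, and the nearest optimal summit was 590847 bp away.

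The 7 other initiation factors all had a peak, beside 38.1% of all protein-coding genes. The strongest of all 53 genes was eIF6, which keeps the large subunit from joining too early and takes part in its assembly. Its peak on chromosome 2R from 23850094 to 23850588 had a signal of 1155, rank 49 in the optimal list, with 936 in replicate 1 (rank 25) and 233 in replicate 2 (rank 173). The summit lay 69 bp before the start, in an exon of a non-coding transcript. eIF1, which acts in start codon selection, had 558 with its summit 350 bp before the start and nearer to RpL28, a ribosomal protein gene. eIF2A had 357, the subunit joining GTPase eIF5B 300.2, eIF1A 186, eIF2D 171 and the eIF2 GTPase activator eIF5 106. The summit at eIF5 was equally near to a start of CG46312, 130 bp from each.

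Among the elongation factors, all 5 eEF1 genes had a peak (38.1% over all protein-coding genes), with a median signal of 191. eEF1alpha1, which brings aminoacyl-tRNA to the ribosome, had 948 in the optimal list (rank 100), 681 in replicate 1 and 271 in replicate 2. Its 4 summits had signals of 948, 399.6, 188 and 171, and the strongest lay in an intron 254 bp before the most downstream of its starts. The exchange complex that recharges eEF1alpha had 442 at eEF1gamma, 191 at eEF1delta and 176 at eEF1beta. The translocase eEF2 had 277 and eEF5, the hypusine-bearing factor, 331. The release factors were eRF1, which reads the stop codon, with 425, and its GTPase partner eRF3 with 362. Both release factor summits were shared with a neighbour, eRF1 with Rbbp5 and eRF3 with SC35.

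Duplicated genes were compared within 8 paralogue sets holding 21 of the genes. Each set had at least 1 gene with a peak. In all, 12 of the 21 genes had one, beside 38.1% of all protein-coding genes, and 9 had none. Outside the sets 28 of 32 genes had a peak and 4 (eIF2Balpha, eIF2Bbeta, eIF3l and eIF4B) had none. In 3 sets all genes had a peak: eIF4G, eEF1alpha and the pair of eEF1beta with eEF1delta. Among these 3 sets the eEF1alpha genes were farthest apart in signal, 948 at eEF1alpha1 and 93.5 (rank 6097) at eEF1alpha2, and in both replicates eEF1alpha2 ranked lower, at 4773 and 8089 against 92 and 122. eIF4G2, needed in the male germ line, had 186 (111 in replicate 1 and 66.5 in replicate 2) and eIF4G1, the general scaffold, 85.1 (60.6 and 30.3). The summit at eIF4G2 lay 3 bp from its start and equally near to a start of CG33111, so the peak cannot be assigned to 1 of them. eEF1beta and eEF1delta lay closer together in the optimal list, at 176 and 191. Replicate 1 gave them 123 and 116, and replicate 2 gave them 39.1 and 77.6, so the order of the pair differed between the replicates.

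The other 5 sets were mixed. eIF3d1 had 496, eIF3f1 283, eIF3g1 98.3 and eIF4H1 409, and eIF3d2, eIF3f2, eIF3g2 and eIF4H2 had no region in the pooled list or in either replicate list within 500 bp. Each of the 4 genes with a peak was also above its copy in both replicates, since the copy had no region there. In replicates 1 and 2 the values were 369 and 131 at eIF3d1, 193 and 82.3 at eIF3f1, 65.0 and 34.9 at eIF3g1, and 220 and 190 at eIF4H1. The eIF4E set had peaks at eIF4E1 (176 and 86.4 in the replicates) and eIF4EHP (487 and 238). eIF4E3, a form that acts in male germ cells, had no region in any list, and neither had eIF4E4 and eIF4E5. eIF4E6 had a pooled region of 74.1 at rank 7746, just below the lowest signal of the optimal list (77.1), and eIF4E7 one of 17.6 at rank 24247. The replicates ranked eIF4E7 at 29665 and 26861. Just inside the list were eIF4G1 at 85.1 and eEF1alpha2 at 93.5. In all, 7 of the 53 genes (13.2%) had no region within 500 bp in these lists, beside 30.8% of all protein-coding genes, and all 7 belong to paralogue sets. Any region of the pooled list, background included, was near 46 genes (86.8%), beside 62.9%.

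The 2 replicates were read through their own 7451 strongest regions, the size of the optimal list. Replicate 1 had 42 of the 53 genes (79.2%, beside 39.0% of all protein-coding genes) and replicate 2 had 36 (67.9%, beside 33.2%). Both had 36 genes. Replicate 1 alone added eIF3l (54.3, rank 7398) and eIF4E6 (54.7, rank 7336), which replicate 2 ranked at 8848 and 9176. Replicate 2 lacked 4 genes that the optimal list holds: eEF1alpha2 (rank 8089), eIF3i (7973), eIF3k (8666) and eIF3m (7639). All 4 had pooled signals of 173 or less, below the median of 264 at the 40 genes.

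**Figure D2:**
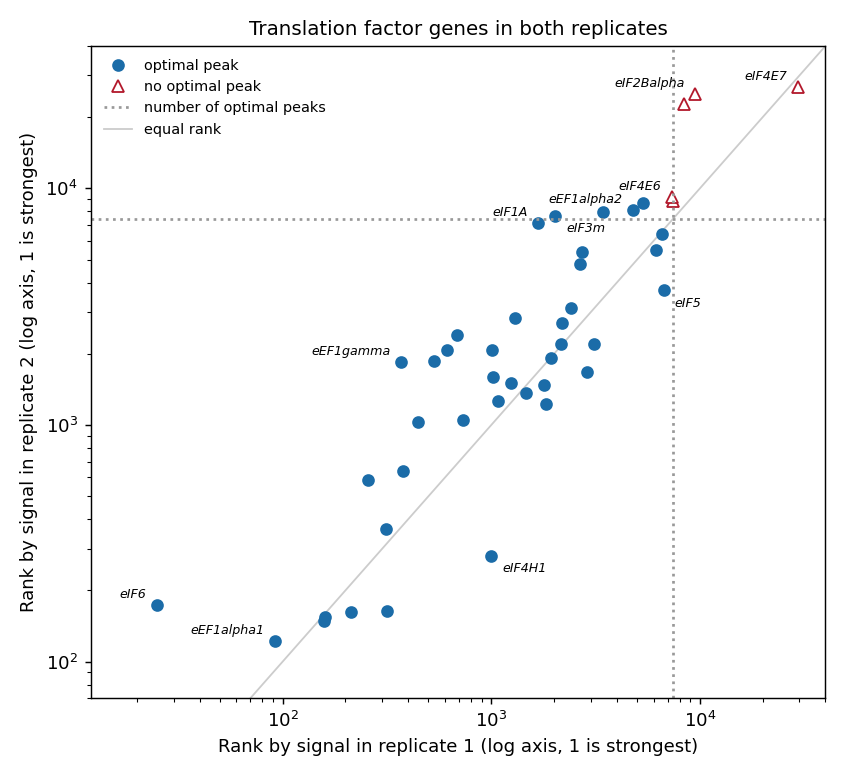
Rank by signal in replicate 1 (x axis) and replicate 2 (y axis), both log axes on which 1 is the strongest, for the translation factor genes that have a region in both replicate lists. Filled points have an optimal peak, triangles have none, dotted lines mark rank 7451 and the grey line equal ranks; 26 of the 40 filled points lie above that line, and eIF4H1 ranks 998 and 280 and eIF1A 1681 and 7144.

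Over the 40 genes with a peak the Spearman rank correlation of the replicates was 0.84, with Pearson's r of log2 signals 0.85, beside 0.70 and 0.74 over 5105 protein-coding genes with values in both. The points share the same 2 libraries, so no p is given. The median signals were 190 and 73.4 and the median ratio of replicate 1 to replicate 2 was 2.48 (2.51 over all genes), so levels cannot be set side by side and ranks are used instead. The ratio ran from 1.16 at eIF4H1 to 5.93 at eIF1A. eIF4H1 was thus ranked 998 in replicate 1 and 280 in replicate 2, and eIF1A 1681 and 7144. A better rank came from replicate 1 at 26 genes and from replicate 2 at 14, beside 3263 and 1836 of the 5105 genes, a similar split.

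The summits lay close to the starts. The median distance of the strongest summit to the nearest start of the gene was 48 bp, beside 76 bp over all genes with a peak, and 29 of 40 (72.5%) were within 100 bp, beside 58.1%. They lay before the start at 21 genes (52.5%) and past it at 19, beside 70.6% before it over all genes. By the annotation of any gene, 20 were in a 5′ UTR, 12 between genes and 5 in an intron. A further 2 were in a coding exon (eEF1beta and eEF1delta) and 1 in a non-coding exon. The class can be that of a neighbour, as at eIF2Bepsilon, where a 5′ UTR summit lay 118 bp before the only start. A summit that is also within 500 bp of another coding gene was found at 12 genes (30.0%), beside 51.5%, and 16 genes (40%) had more than 1 summit, beside 25%. Of the 31 genes with no other coding start within 500 bp, 23 (74.2%) had a peak, beside 25.1% of all such genes. Of the 22 others 17 (77.3%) had one, beside 67.1%.

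**Figure D3:**
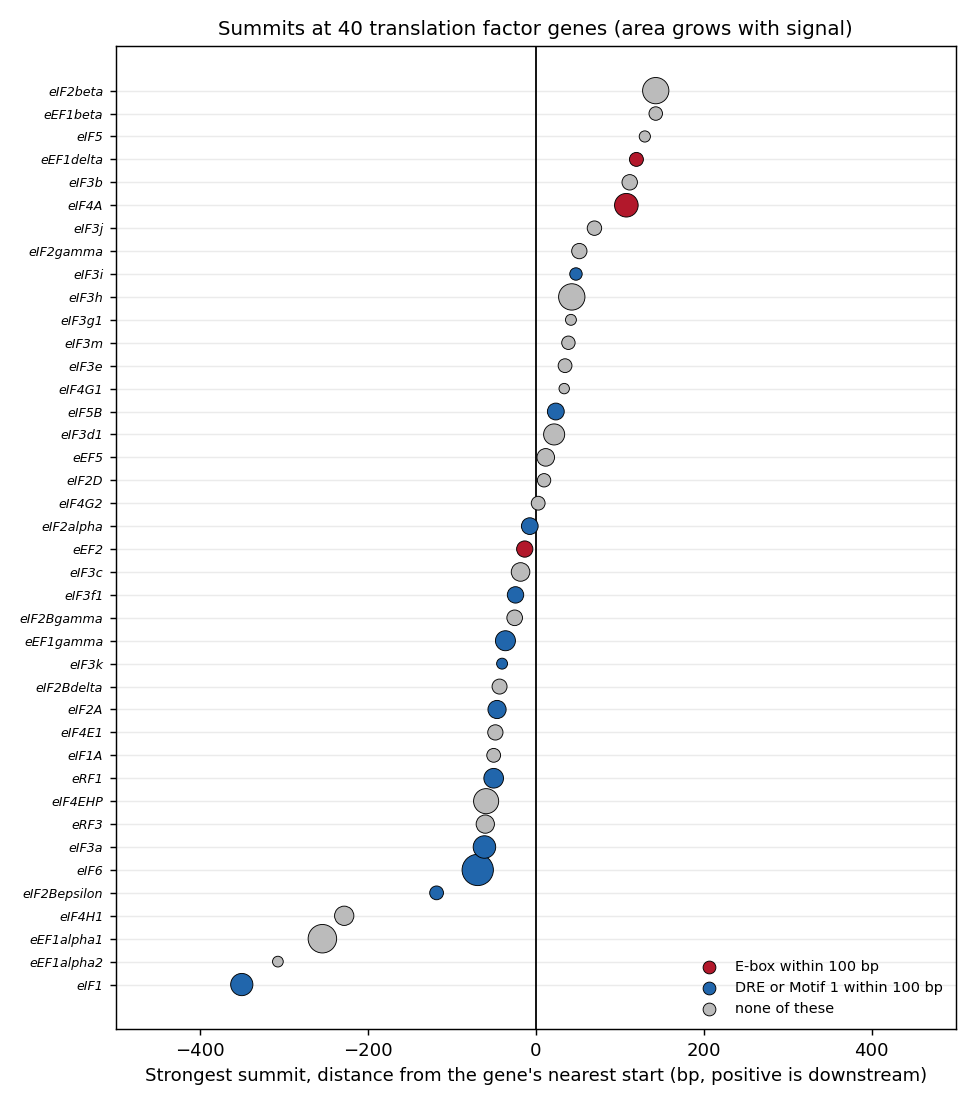
Distance of the strongest summit from the nearest start of each of the 40 translation factor genes with a peak, in bp with positive values downstream; the area of a point grows with the signal and its colour shows an E-box, or a DRE or Motif 1, within 100 bp. The summits gather at the start with eIF1 at -350 bp and eEF1alpha2 at -307 bp the farthest, and eIF4A, eEF2 and eEF1delta carry the E-box. eEF1alpha2 also had a summit of nearly the same signal (93.1 beside 93.5) at -40 bp, which is not drawn.

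The E-box CACGTG was within 100 bp of the strongest summit at 3 of 40 genes (7.5%), eIF4A, eEF2 and eEF1delta, beside 8.54% of all genes with a peak. No member had one within 50 bp (4.78% over all genes), and 7 (17.5%, beside 13%) had one within 250 bp. At the canonical start the E-box was within 100 bp of 5 of 53 genes (9.43%, beside 2.92% of all). In any start's 500 bp it was found at 8 genes (15.1%, beside 15.4%). Of these 8 genes 7 had a peak, beside 52.1% of all genes with such an E-box and 75.5% of all 53 members. The exception was eIF3f2, with an E-box 48 bp before its start and no region in any list. eIF6, with the highest signal, had its E-box 139 bp from the summit, and eIF2A and eIF2gamma had theirs 147 and 155 bp away. At eEF1alpha1 the E-box lay 904 bp from the strongest summit and near the summit of 188.

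The DRE was within 100 bp of the strongest summit at 8 genes (20%, beside 11.2%), and Motif 1 at 6 (15.0%, beside 9.20%). Together they were at 12 genes (30.0%, beside 19.4%), with a median signal of 329, against 277 at the 3 genes with an E-box and 237 at the 25 with none of these. The DRE genes were eIF1, eIF2A, eIF2alpha, eIF3a, eIF3f1, eIF6, eEF1gamma and eRF1. Motif 1 was at eIF2A, eIF2Bepsilon, eIF2alpha, eIF3i, eIF3k and eIF5B. In eIF2 and eIF2B 1 gene each held either motif, in eIF3 4, and in eIF4 none. Of other E-boxes, CACGCG was at 8 genes (20%, beside 9.09%) and CAGCTG at 3 (7.5%, beside 17.4%). At the canonical start the DRE was found at 13 of 53 genes (24.5%, beside 7.5%). The pyrimidine run was also at 13 (24.5%, beside 4.77%). Of these, 11 had a peak, beside 281 of the 665 protein-coding genes with such a run. With or without the run, 75.5% of the members and 38.1% of all protein-coding genes had a peak. The members with the run and no peak were eIF3l and eIF4E5. A match is a description of the letters and says nothing on whether a factor binds there.

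**Figure D4:**
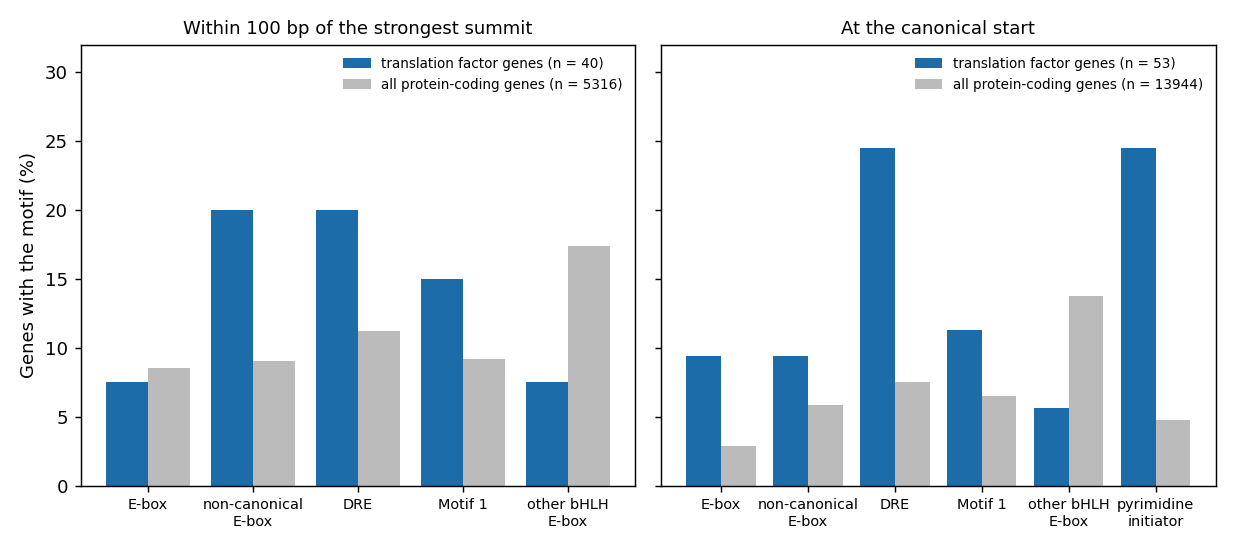
Percent of genes with each motif (the non-canonical E-box is CACGCG and the other bHLH E-box is CAGCTG), for translation factor genes and all protein-coding genes. The left panel is within 100 bp of the strongest summit and covers only genes with a peak, 40 and 5316. The right panel is at the canonical start of 53 and 13944 genes, within 100 bp, or 20 bp for the pyrimidine run on the gene's strand. The bars of the translation factor genes are the higher ones for the DRE (20% and 24.5%) and the pyrimidine run (24.5%). They are also higher in both panels for GGTCACAC (15% and 11.3%) and CACGCG (20% and 9.43%). For the E-box CACGTG the bars are 7.5% beside 8.54% at the summit and 9.43% beside 2.92% at the canonical start. For CAGCTG the bars of the translation factor genes are the lower ones (7.5% and 5.66%).

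Genes that control the factors were read from a list of 22, of which 16 had a peak, beside 38.1% of all protein-coding genes. Their median signal was 322, beside 171 over all genes with a peak. They include kra, a regulator related to eIF5, with 727, the deoxyhypusine hydroxylase nero with 551, and the diphthamide genes Dph1 with 538, Dph5 with 387 and Dph2 with 132, which modify eEF2. The ATF4 gene crc had 528, the DEAD-box helicase bel 519, the poly(A)-binding protein gene pAbp 405, the deoxyhypusine synthase Dhps 324, the 4E-BP gene Thor 320 and the recycling ATPase pix 267. NAT1 had 152, MCTS1 104, PPP1R15 83.3, Paip2 82.4 and the eIF2alpha kinase PEK 81.0. 4E-T, Gcn2, DENR, eEFSec, cup and BicC had none. Of 9 mitochondrial translation factor genes 5 had a peak, beside the same 38.1%, and their median signal of 150 was below the 171 over all genes. The values were mEFG1 318, mEFTs 207, mRF1 150, mEFTu2 94.8 and mEFTu1 91.1. mIF2, mIF3, mRRF1 and mRRF2 had none.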

How the data were processed

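The deposited values were region lists on dm6: 1 per replicate, 1 pooled and 1 optimal. The replicate and pooled lists hold 30000 regions each and were deposited as peaks and background, so a region there need not be a peak. Per the file listing deposited with the samples, the pooled list derives from the alignments of the 2 replicates plus 1 more file, and the optimal list from the replicate and pooled lists. Each region carries a signal and a −log10 q-value from the authors' peak caller, which is not given in the sources used here, nor are the aligner and the depth in reads. All 7451 optimal peaks stand at the q-value cap of 4.22, so the deposited signal ranks them. The pooled regions at eIF4B and eIF4E7 had a −log10 q of only 0.15 and 0.312. Lists on dm3 were not used here.

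Summits were set against 35497 transcripts of 18164 genes (Ensembl release 115, Release 6 genome). A summit counted for every gene with a start within 500 bp, and the strongest summit stood for the gene. A replicate's value is its strongest region within 500 bp, which may be another summit than that of the optimal list. The 5 motifs other than the pyrimidine run were searched on both strands within 100 bp. Neighbouring genes share summits, so genes are not independent, and no chance test was made.

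The members, the lists (translation control and mitochondrial translation factors) and the alternatives were chosen with earlier results of these data known. Of 35 symbols in the lists 4 found no gene. Every member could be named, and was given with its replicate signals or ranks when among the 10 strongest, with an E-box at the summit, in a paralogue set or differing between lists. Counting was checked on simulated summits. Alternatives were other distances and windows, the nearest gene alone, the canonical start alone, the stronger 3726 peaks and each replicate alone. Python 3.11.15, numpy 2.4.6, pandas 2.3.3, scipy 1.17.1 and matplotlib 3.10.9 were used.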

Additional observations from a re-analysis of the deposited data

How the results depend on the processing

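Of 55 values under other settings, 52 were called unmoved. For counts the limit was 1.5 times the reported count, and for the median signal a difference of 73.1. The latter is the SD of the median signals of the 2 replicates, whose lists differ in level, so it is wide and decides little. The median signal ran from 236 to 277, against 264 as reported. The 3 that moved were the count of genes with an E-box at the strongest summit, which was 0 with 50 bp and 7 with 250 bp against 3, and the count of eIF2B genes with a peak, which was 1 with the nearest gene alone against 3. With each replicate alone the 53 genes gave 36 to 42 with a peak, eIF3 9 to 13, eIF4 6 to 7, eEF1 4 to 5, eIF2 and eIF2B 3 each, and the E-box 3 to 4. The stronger 3726 peaks left 35 genes, without eEF1alpha2, eIF3g1, eIF3k, eIF4G1 and eIF5. With 250 bp eIF1 was lost, with 1000 bp eIF2Bbeta was gained, and with the canonical start alone the same 40 genes had a peak. With the nearest gene alone 36 genes kept a peak, without eIF1, eIF2Bdelta, eIF2Bepsilon and eIF3a. The cause of these changes was not tested. No paired analysis was possible because there was 1 group. The depth in reads is unknown and the control libraries were not analysed here, so a missing peak says only that none was called in these libraries.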
